A study of Caenorhabditis elegans with 18 samples.

Results

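Described here are 10 Caenorhabditis elegans genes of transsulfuration and hydrogen sulphide metabolism: cbs-1, cbs-2, cth-1, cth-2, cdo-1, cysl-1, cysl-2, cysl-3, sqrd-1 and rhy-1. They were taken by symbol from the 20953 genes of a deposited expression table, and each symbol matched 1 WormBase gene. The list was drawn up with earlier results of these data known. Transsulfuration moves sulphur from homocysteine, a product of the methionine cycle, to cysteine. Cystathionine beta-synthase joins homocysteine to serine to make cystathionine, cystathionine gamma-lyase splits cystathionine to give cysteine, and both enzymes can also release hydrogen sulphide. Cysteine is removed by cysteine dioxygenase, hydrogen sulphide is oxidised by sulphide:quinone oxidoreductase, and in the worm hydrogen sulphide also acts through CYSL-1 and the regulator RHY-1 on the prolyl hydroxylase EGL-9 and the hypoxia-inducible factor HIF-1.

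The libraries came from whole animals of 3 genotypes, each under 3 treatments, with 2 libraries per group and 18 in all. The genotypes were a deletion of nhr-10 (allele tm4695, for which the labels give no strain), a deletion of nhr-68 (allele gk708, strain VC1527) and the wild-type strain N2 (WT). The treatments were 20 nM vitamin B12 with 40 mM propionate, 20 nM vitamin B12 alone, and no addition (untreated). The sample titles of the untreated groups name OP50, a bacterial food, where the other titles name the additions. Vitamin B12 is the cofactor of methionine synthase and of methylmalonyl-CoA mutase, the last enzyme of the canonical breakdown of propionate, and NHR-10 and NHR-68 are nuclear hormone receptors known for switching on the alternative propionate shunt. The design thus asks how the responses to B12 and propionate differ between the mutants and WT. All groups shared the same rearing: growth without added B12, synchronization over successive generations by an 18 h arrest of first-stage larvae, then 48 h of treatment up to the fourth larval stage (L4). Each library held RNA from a pool of about 3000 animals. Each mutant is represented by a single allele. Nothing in the labels says whether the 2 libraries of a group came from separate cultures, so p-values measure the spread between libraries, which may be technical. In pooled whole animals, fewer cells of a type and less RNA per cell cannot be told apart.

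Values are FPKM, which count fragments per kilobase of transcript and are divided by the size of the library. A library rested on an estimated 12300000 to 13700000 fragments and held 13753 to 14732 genes at 1 FPKM or more, and replicate libraries correlated at Pearson r 0.970 to 0.986 across genes. nhr-10 itself lay between 6.14 and 10.33 FPKM in the 6 libraries labelled nhr-10, against 12.23 to 33.45 FPKM in the other 12. nhr-68 lay between 1.71 and 14.95 FPKM in the libraries labelled nhr-68, against 48.69 to 108.25 FPKM in WT, and ranged from 5.18 to 140.23 FPKM in nhr-10 mutants. Reads in both deleted genes remained, and which part of each gene they came from was not analysed here. Summed markers of intestine, hypodermis and muscle were detected in every library, at 3616 to 6338, 1566 to 3674 and 3138 to 4991 FPKM of summed level. Differences are given on the scale log2(FPKM + 1) with the standard error (SE) of limma, and a call means a Benjamini-Hochberg adjusted p under 0.05, the adjustment running over the 15575 genes tested in a comparison. All 10 members were tested, since each reached 1 FPKM in all 18 libraries.

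The levels of the 10 genes covered a wide range. cth-2, for cystathionine gamma-lyase, had the highest mean over the libraries, 169.9 FPKM, followed by cysl-2 at 67.6 FPKM and cth-1 at 58.4 FPKM. cysl-1, cdo-1, cbs-1 and cysl-3 averaged 45.5, 35.7, 22.01 and 15.9 FPKM. rhy-1, sqrd-1 and cbs-2 were lowest, at 8.76, 6.07 and 5.98 FPKM. cysl-2 spread most, its highest library being 16.8 times its lowest, ahead of rhy-1 at 11.8 times and cbs-1 at 11.2 times. cth-2 and cysl-1 spread least, at 2.01 and 2.03 times. The estimated fragments behind a value ran from 39 for rhy-1 in its lowest library to 4456 for cth-2 in its highest. In their lowest libraries rhy-1 and sqrd-1, with 39 and 54 fragments, therefore carried the largest relative counting error. By the median over the libraries the fewest fragments were those of sqrd-1 (97), cbs-2 (154) and rhy-1 (168).

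**Figure D1:**
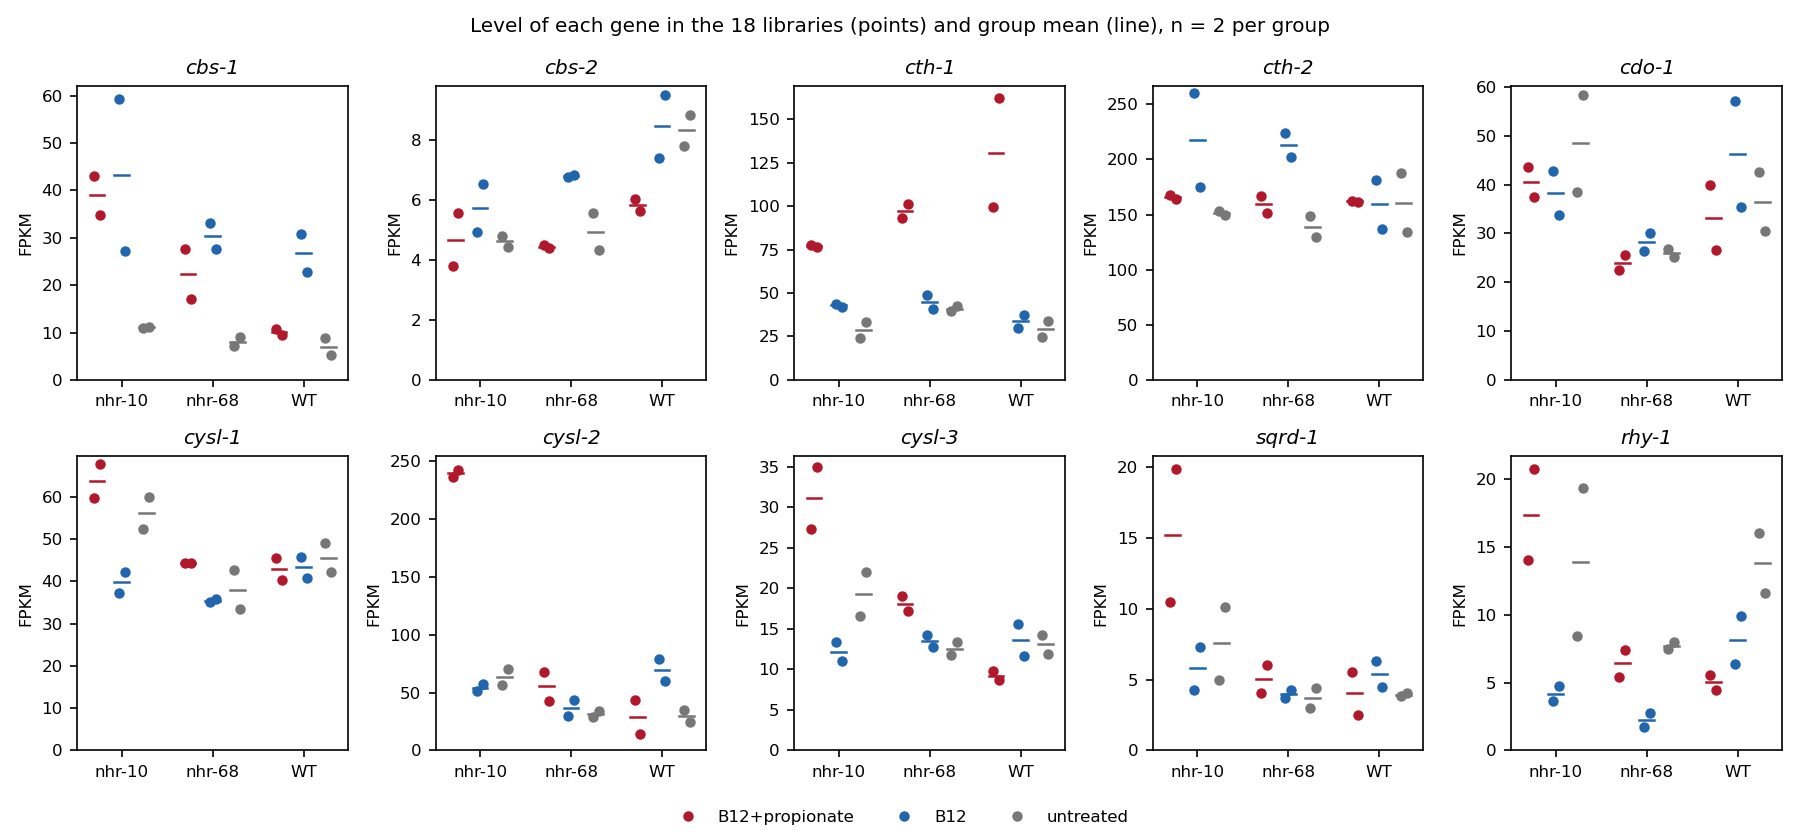
FPKM of each of the 10 genes in the 18 libraries (points; lines mark the mean of the 2 libraries of a group), by genotype along the horizontal axis and treatment by colour, each vertical axis starting at 0. cysl-2 stood at 236.5 and 242.6 FPKM in nhr-10 mutants on B12 with propionate, with its other 16 libraries below 80 FPKM, and the 6 highest libraries of cth-1 were those given propionate.

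Of the 190 tests of the 10 genes in 19 comparisons, 24 called a gene higher and 1 called a gene lower. Calls fell on 7 genes, and cbs-2, cth-2 and cdo-1 had none. The comparisons share libraries: the B12 libraries of a genotype enter both its propionate comparison and its comparison with untreated animals, and the WT libraries serve both mutants. Their values are therefore set side by side and are not independent of each other.

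cbs-1 and cbs-2 are annotated as genes of the cystathionine beta-synthase step. cbs-1 (chromosome X, 10054275 to 10057528, plus strand, WBcel235) was higher on B12 than without it in all 3 genotypes. Its libraries from nhr-10 mutants stood at 43.12 and 34.85 FPKM on B12 with propionate, 59.36 and 27.14 FPKM on B12, and 11.04 and 11.21 FPKM untreated. In nhr-68 mutants it stood at 27.70 and 17.03 FPKM on B12 with propionate, 33.10 and 27.74 FPKM on B12, and 7.13 and 8.97 FPKM untreated. WT libraries held 10.74 and 9.42 FPKM on B12 with propionate, 30.73 and 22.79 FPKM on B12, and 8.75 and 5.30 FPKM untreated. In each genotype both B12 libraries lay above both untreated libraries, and on propionate the mutants stayed high while WT lay near its untreated level.

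The rise of cbs-1 on B12 was of nearly the same size in the 3 genotypes. It reached 43.3 ± 22.8 FPKM on B12, against 11.1 ± 0.12 FPKM untreated, in nhr-10 mutants (SD, n = 2 each; log2 1.77 ± 0.332, SE; limma, Benjamini-Hochberg adjusted p = 0.0266). In nhr-68 mutants the log2 difference was 1.80 ± 0.332 (limma, Benjamini-Hochberg adjusted p = 0.0233), and in WT it was 1.81 ± 0.332 (limma, Benjamini-Hochberg adjusted p = 0.0285). It was the single called member of the 10 in each of these comparisons, in which 0.783%, 0.751% and 0.616% of all tested genes were called. Tested directly, the difference in the B12 response from WT was -0.04 in nhr-10 mutants (95% interval -1.06 to 0.97) and -0.01 in nhr-68 mutants (-1.03 to 1.01), neither called. For both of those interaction comparisons 0 of 10 members were called, against 0.0257% and 0.00642% of all genes, 2 members and 1 member having an unadjusted limma p under 0.05. The call in WT and that in nhr-68 mutants were each lost whichever library was left out, with adjusted p up to 0.278 and 0.242, while the log2 difference kept between 1.49 and 2.12 in WT. The call in nhr-10 mutants was lost without B12 replicate 1 (log2 1.21, adjusted p = 0.227) or either untreated library (adjusted p = 0.141 and 0.200).

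On B12 with propionate, cbs-1 was higher in nhr-10 mutants than in WT. It averaged 39.0 ± 5.85 FPKM in nhr-10 mutants and 10.1 ± 0.933 FPKM in WT under both additions (SD, n = 2 each), 3.87-fold on the FPKM scale, and this difference was called (log2 1.85 ± 0.332; limma, Benjamini-Hochberg adjusted p = 0.00600). The adjusted p became 0.0510 without WT replicate 2. nhr-68 mutants lay between, at 22.4 ± 7.54 FPKM (log2 against WT 1.04 ± 0.332, limma, Benjamini-Hochberg adjusted p = 0.113). Against B12 alone, the change on propionate was -0.05 in nhr-10 mutants, -0.46 in nhr-68 mutants and -1.31 in WT on the log2 scale, and none of these was called (adjusted p = 0.950, 0.697 and 0.0928). Against untreated animals of the same genotype, nhr-10 mutants on B12 with propionate were higher (log2 1.71 ± 0.332; limma, Benjamini-Hochberg adjusted p = 0.0247), a call lost without any 1 of the 4 libraries. nhr-68 mutants and WT had log2 differences of 1.34 and 0.50 there, with adjusted p = 0.181 and 0.877. The difference of the propionate response between nhr-10 mutants and WT was 1.26 ± 0.470, not called (limma, Benjamini-Hochberg adjusted p = 0.103). Against WT on B12 alone, cbs-1 in nhr-10 mutants was called without nhr-10 replicate 2 (log2 1.14, adjusted p = 0.0393) and in no other fit.

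cbs-2 (chromosome II, 2220396 to 2223567, minus strand) was weakly expressed and had no call. Its libraries ran from 3.80 FPKM, in an nhr-10 mutant library on B12 with propionate, to 9.51 FPKM, in a WT library on B12. Untreated, it averaged 4.62 ± 0.276 FPKM in nhr-10 mutants and 4.95 ± 0.856 FPKM in nhr-68 mutants, against 8.32 ± 0.735 FPKM in WT (SD, n = 2 each). The libraries of either mutant lay below both WT libraries, and the log2 differences were -0.73 ± 0.194 and -0.65 ± 0.194 (limma, Benjamini-Hochberg adjusted p = 0.0941 and 0.0661). cbs-1 made up 89.1%, 86.4% and 70.7% of the summed FPKM of the pair in nhr-10 mutants on B12 with propionate, on B12 and untreated, against 63.3%, 75.6% and 45.2% in WT.

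cth-1 and cth-2 encode cystathionine gamma-lyases, the enzymes of the next step. cth-1 (chromosome V, 16100680 to 16102750, plus strand) was the single member whose propionate response was called in WT. In nhr-10 mutants its libraries held 77.72 and 76.40 FPKM on B12 with propionate, 43.94 and 41.94 FPKM on B12, and 23.96 and 33.52 FPKM untreated. nhr-68 mutants had 93.37 and 101.09 FPKM on B12 with propionate, 48.57 and 40.63 FPKM on B12, and 39.42 and 42.41 FPKM untreated. WT libraries held 99.31 and 162.17 FPKM on B12 with propionate, 30.00 and 37.26 FPKM on B12, and 24.52 and 34.14 FPKM untreated. The propionate libraries of each genotype stood above all libraries without propionate, and the propionate groups came first in the order WT, nhr-68, nhr-10, the first pair overlapping.

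In WT, cth-1 rose to 130.7 ± 44.4 FPKM on B12 with propionate, against 33.6 ± 5.13 FPKM on B12 (SD, n = 2 each; 3.89-fold; log2 1.89 ± 0.231, SE; limma, Benjamini-Hochberg adjusted p = 0.00192). This was 1 of 10 members, among 0.411% of all genes. Against untreated WT the log2 difference was 2.10 ± 0.231 (limma, Benjamini-Hochberg adjusted p = 0.00108), again the single member, among 0.295% of all genes. Both calls held whichever of the 4 libraries was left out, and were lost with only the compared groups in the fit (adjusted p = 0.356 and 0.471). In nhr-10 mutants the rise against B12 was 0.83 ± 0.231, or 1.79-fold (limma, Benjamini-Hochberg adjusted p = 0.0490), a call kept under 1 of 9 alternatives. The FPKM ratio was 2.18 in nhr-68 mutants (log2 1.11 ± 0.231), which missed the threshold (limma, Benjamini-Hochberg adjusted p = 0.0724). Against untreated animals cth-1 rose in both mutants, by 1.41 ± 0.231 in nhr-10 (limma, Benjamini-Hochberg adjusted p = 0.00877) and by 1.23 ± 0.231 in nhr-68 (limma, Benjamini-Hochberg adjusted p = 0.0373). The call in nhr-68 was lost without any 1 of the 4 libraries, and that in nhr-10 without B12 with propionate replicate 2 (adjusted p = 0.0796) or untreated replicate 1 (adjusted p = 0.0848). It was the single member called of 10 in nhr-68 mutants, among 0.475% of all genes. The propionate response of cth-1 minus that of WT was -1.06 ± 0.326 in nhr-10 mutants and -0.78 ± 0.326 in nhr-68 mutants on the log2 scale, and neither difference was called (limma, Benjamini-Hochberg adjusted p = 0.0605 and 0.421). The difference for nhr-10 was called without WT B12 with propionate replicate 1 (-1.41, adjusted p = 0.0139).

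cth-2 (chromosome II, 7056184 to 7057960, minus strand) had no call. Its libraries ran from 129.59 FPKM in an untreated nhr-68 library to 260.13 FPKM in an nhr-10 library on B12. Group means were 166.0, 217.6 and 151.7 FPKM in nhr-10 mutants on B12 with propionate, on B12 and untreated, 159.3, 213.4 and 139.0 FPKM in nhr-68 mutants, and 162.1, 159.2 and 160.7 FPKM in WT. Its smallest adjusted p in any comparison was 0.194, for nhr-10 mutants against WT on B12 (log2 0.43, 95% interval -0.0032 to 0.87), which became 0.72 with adjusted p = 0.0478 without nhr-10 replicate 2. Within the pair, the share of cth-1 was highest on propionate in each genotype. Without propionate the share did not follow cth-1 alone. In nhr-68 mutants it was lower on B12 than untreated, although cth-1 stood at 44.6 against 40.9 FPKM, because cth-2 was higher. cth-1 held 31.7% ± 0.0606 of the summed FPKM of the pair on B12 with propionate in nhr-10 mutants, 37.9% in nhr-68 mutants and 44.0% in WT, against 16.9%, 17.3% and 17.8% on B12 and 15.9%, 22.8% and 15.9% untreated.

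**Figure D2:**
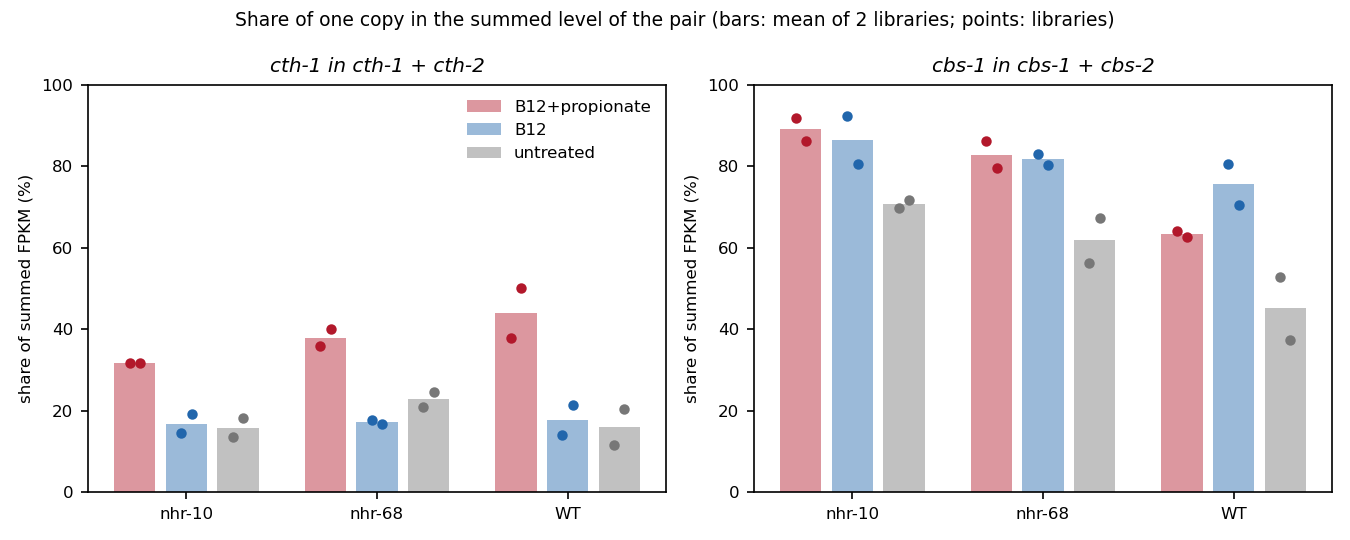
Share, in percent, of cth-1 in the summed FPKM of cth-1 and cth-2 (left) and of cbs-1 in the summed FPKM of cbs-1 and cbs-2 (right), by genotype and treatment; bars are means of 2 libraries and points are libraries, on axes from 0 to 100%. cth-1 reached 31.7% to 44.0% with propionate, against 15.9% to 22.8% without it, and cbs-1 held 45.2% of its pair in untreated WT.

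The methionine cycle supplies the homocysteine that these enzymes use, and 9 of its genes were tested beside them. On B12, 5 of the 9 fell in each genotype and none rose, where 0.783%, 0.751% and 0.616% of all genes were called in nhr-10 mutants, nhr-68 mutants and WT. The 5 were metr-1 (methionine synthase, which needs B12), mtrr-1 (its reductase), ahcy-1 (adenosylhomocysteinase, which makes homocysteine), mthf-1 (methylenetetrahydrofolate reductase) and mel-32 (serine hydroxymethyltransferase). metr-1 stood at 30.41 and 27.38 FPKM on B12, against 158.61 and 266.56 FPKM untreated, in nhr-10 mutants (log2 -2.79 ± 0.214; limma, Benjamini-Hochberg adjusted p = 4.4e-05). In WT, metr-1 stood at 32.41 and 31.95 FPKM on B12, against 152.05 and 128.87 FPKM untreated (log2 -2.09 ± 0.214; limma, Benjamini-Hochberg adjusted p = 5.0e-04). The median log2 difference of the 9 genes was -1.26 in nhr-10 mutants, -0.74 in nhr-68 mutants and -0.92 in WT, against -0.12, -0.06 and -0.08 for all genes. cbs-1 thus rose in the same animals in which these genes fell.

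Of the 9 methionine cycle genes, B12 with propionate against untreated gave lower levels of 5 in nhr-10 mutants, 4 in nhr-68 mutants and 7 in WT, in comparisons that called 1.43%, 0.475% and 0.295% of all genes. sams-1, for S-adenosylmethionine synthetase, set the genotypes apart on propionate. Against B12 alone it was higher in nhr-10 mutants, at 425.8 ± 173.3 against 192.1 ± 14.0 FPKM (SD, n = 2 each; log2 1.08 ± 0.278; limma, Benjamini-Hochberg adjusted p = 0.0385). In WT it fell to 76.3 ± 3.99 FPKM on B12 with propionate, against 229.1 ± 54.2 FPKM on B12 (log2 -1.56 ± 0.278; limma, Benjamini-Hochberg adjusted p = 0.0358). The difference between these responses was called (2.64 ± 0.394; limma, Benjamini-Hochberg adjusted p = 0.00950). Under both additions sams-1 was also higher than in WT in both mutants (log2 2.40 in nhr-10 and 1.22 in nhr-68), and mthf-1 was higher in nhr-10 mutants (0.97), so that 2 of the 9 were called in nhr-10 mutants (7.19% of all genes) and 1 in nhr-68 mutants (3.13%). sams-1 has close relatives, between which the authors' read assignment could have split fragments.

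The cysteine synthase-like genes cysl-1, cysl-2 and cysl-3 form the next group. cysl-2 (chromosome II, 14492874 to 14494451, minus strand), which encodes a cyanoalanine synthase that detoxifies cyanide and is a known target of HIF-1, showed the largest contrast of the 10 genes. nhr-10 mutant libraries held 236.50 and 242.60 FPKM on B12 with propionate, 51.25 and 57.11 FPKM on B12, and 56.35 and 70.01 FPKM untreated. nhr-68 libraries held 68.10 and 42.42 FPKM on B12 with propionate, 29.54 and 43.14 FPKM on B12, and 28.61 and 33.94 FPKM untreated. WT libraries held 43.67 and 14.42 FPKM on B12 with propionate, 79.12 and 59.68 FPKM on B12, and 35.00 and 24.75 FPKM untreated. The pair of nhr-10 libraries on B12 with propionate stood apart from the other 16, and in WT both propionate libraries lay below both B12 libraries.

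Against B12 alone, cysl-2 rose to 239.6 ± 4.31 FPKM on B12 with propionate, against 54.2 ± 4.14 FPKM on B12, in nhr-10 mutants (SD, n = 2 each; 4.42-fold; log2 2.13 ± 0.393, SE; limma, Benjamini-Hochberg adjusted p = 0.0118). Its log2 difference was 0.58 in nhr-68 mutants and -1.41 in WT, neither called (limma, Benjamini-Hochberg adjusted p = 0.685 and 0.109). The value in WT depended on which propionate library was kept: it was -2.18 (adjusted p = 0.0105, a call) without the first and -0.64 (adjusted p = 0.594) without the second. cysl-2 was 8.25-fold higher on B12 with propionate in nhr-10 mutants than in WT, where it averaged 29.0 ± 20.7 FPKM (log2 3.20 ± 0.393; limma, Benjamini-Hochberg adjusted p = 5.51e-04). Omitting any 1 of the 4 libraries kept that call, with log2 differences from 2.43 to 3.96. Without the first WT propionate library nhr-68 mutants were called higher than WT too (1.83, adjusted p = 0.0280). Untreated and on B12 the log2 difference between nhr-10 mutants and WT was 1.07 and -0.34, neither called (limma, Benjamini-Hochberg adjusted p = 0.199 and 0.634). Against untreated nhr-10 mutants, the rise on B12 with propionate was 1.91 ± 0.393 (limma, Benjamini-Hochberg adjusted p = 0.0317), and it was lost without any 1 of the 4 libraries. B12 alone gave a log2 difference of 1.195 against untreated in WT, not called (limma, Benjamini-Hochberg adjusted p = 0.366).

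cysl-3 (chromosome V, 3774536 to 3776136, minus strand) followed a similar pattern at a lower level. Its nhr-10 libraries held 27.32 and 34.96 FPKM on B12 with propionate, 13.41 and 11 FPKM on B12, and 16.62 and 22.05 FPKM untreated. Its nhr-68 libraries held 19.03 and 17.15 FPKM on B12 with propionate, 14.27 and 12.79 FPKM on B12, and 11.77 and 13.32 FPKM untreated. In WT it held 9.75 and 8.65 FPKM on B12 with propionate, 15.61 and 11.67 FPKM on B12, and 14.30 and 11.87 FPKM untreated. The propionate libraries were the highest of either mutant and the lowest of WT. Propionate raised cysl-3 in nhr-10 mutants against B12 by 1.28 ± 0.194 on the log2 scale, or 2.55-fold (limma, Benjamini-Hochberg adjusted p = 0.00445). The log2 difference was 0.39 in nhr-68 mutants and -0.51 in WT, neither called (limma, Benjamini-Hochberg adjusted p = 0.570 and 0.190). Against untreated nhr-10 mutants, cysl-3 on B12 with propionate differed by 0.66, not called (limma, Benjamini-Hochberg adjusted p = 0.129). The gene was higher than in WT on B12 with propionate in both mutants, by 1.65 ± 0.194 in nhr-10 (limma, Benjamini-Hochberg adjusted p = 4.34e-04) and by 0.90 ± 0.194 in nhr-68 (limma, Benjamini-Hochberg adjusted p = 0.0291). The call in nhr-10 mutants held without each library in turn, and the call in nhr-68 mutants was lost without any 1 of the 4.

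cysl-1 (chromosome X, 9952579 to 9954533, minus strand), whose product binds EGL-9 when hydrogen sulphide is present, moved least of the 3. nhr-10 libraries held 59.73 and 67.80 FPKM on B12 with propionate, 37.21 and 42.24 FPKM on B12, and 52.32 and 59.90 FPKM untreated. nhr-68 libraries lay between 33.42 and 44.33 FPKM and WT libraries between 40.30 and 49.04 FPKM, whatever the treatment. In nhr-10 mutants it rose on propionate against B12 by 0.67 ± 0.148 (1.61-fold; limma, Benjamini-Hochberg adjusted p = 0.0256). Against untreated nhr-10 mutants, cysl-1 on B12 with propionate differed by 0.18, not called (limma, Benjamini-Hochberg adjusted p = 0.595). On B12 with propionate it stood higher in nhr-10 mutants than in WT by 0.56 ± 0.148 (1.49-fold; limma, Benjamini-Hochberg adjusted p = 0.0391), a call lost without nhr-10 replicate 2 (adjusted p = 0.328) or either WT library (adjusted p = 0.0631 and 0.245). Of the summed FPKM of the 3 genes, cysl-2 held 71.7% in nhr-10 mutants on B12 with propionate, against 51.0% on B12 and 45.5% untreated. The corresponding shares were 46.3%, 42.2% and 38.3% in nhr-68 mutants and 33.5%, 54.8% and 33.5% in WT.

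The enzymes that remove sulphide and cysteine are encoded by sqrd-1 and cdo-1. sqrd-1 (chromosome IV, 14219871 to 14224440, plus strand), for sulphide:quinone oxidoreductase, held 10.50 and 19.89 FPKM in nhr-10 mutants on B12 with propionate, 4.25 and 7.33 FPKM on B12, and 4.95 and 10.16 FPKM untreated. nhr-68 libraries lay between 3 and 6.06 FPKM, and WT libraries between 2.52 and 6.35 FPKM. Both nhr-10 libraries on B12 with propionate stood above all other libraries of the series, by a small margin for the first. sqrd-1 was higher in nhr-10 mutants than in WT on B12 with propionate, at 15.2 ± 6.64 against 4.03 ± 2.13 FPKM (SD, n = 2 each; 3.78-fold; log2 1.69 ± 0.390; limma, Benjamini-Hochberg adjusted p = 0.0212). Without nhr-10 replicate 2 the log2 difference was 1.26 with adjusted p = 0.265, and without WT replicate 2 it was 1.25 with adjusted p = 0.193. Against B12 alone, the change on propionate in nhr-10 mutants was 1.23 ± 0.390, not called (limma, Benjamini-Hochberg adjusted p = 0.0760), and without propionate replicate 1 it was 1.66 and called (adjusted p = 0.0463).

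cdo-1 (chromosome X, 862267 to 863578, minus strand), for cysteine dioxygenase, had no call in the 19 comparisons. Its libraries lay between 33.78 and 58.39 FPKM in nhr-10 mutants, 22.52 and 30.01 FPKM in nhr-68 mutants, and 26.52 and 57.03 FPKM in WT. Each group overlapped its neighbours in the order of means, which ran from 48.5 FPKM in untreated nhr-10 mutants to 24.0 FPKM in nhr-68 mutants on B12 with propionate. The 3 nhr-68 groups held the lowest means. On B12 it averaged 28.2 ± 2.55 FPKM in nhr-68 mutants, against 46.2 ± 15.3 FPKM in WT (SD, n = 2 each; log2 -0.66 ± 0.268; limma, Benjamini-Hochberg adjusted p = 0.145). cdo-1 averaged 40.5 ± 4.21 FPKM in nhr-10 mutants and 33.2 ± 9.48 FPKM in WT on B12 with propionate, a log2 difference of 0.30 with a 95% interval from -0.28 to 0.89.

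Genes further along sulphur oxidation and transfer were tested as a list of 11. On B12 with propionate against B12 in nhr-10 mutants 2 of the 11 rose and none fell, where 4.55% of all genes were called higher: mpst-7, for a mercaptopyruvate sulphurtransferase, to 13.9 ± 2.89 FPKM against 5.29 ± 0.0354 FPKM (log2 1.23 ± 0.273; limma, Benjamini-Hochberg adjusted p = 0.0252), and moc-1, of molybdenum cofactor synthesis, to 9.68 ± 1.12 FPKM against 4.50 ± 0.410 FPKM (0.95 ± 0.204; adjusted p = 0.0219). These genes were also higher in nhr-10 mutants than in WT on B12 with propionate (1.16 and 0.85), where 5.6% of all genes were called higher. The propionate response of mpst-7 was larger than in WT by 1.55, in a test that called 3.53% of all genes larger. suox-1, for sulphite oxidase, which needs that cofactor, was lower on B12 in nhr-10 mutants (log2 -0.52) and in nhr-68 mutants (-0.66) than in WT. It was the 1 called gene of the 11 in each, where 9.68% and 9.84% of all genes were called, near the share of the list. semo-1, for a methanethiol oxidase, was higher in untreated nhr-10 mutants than in untreated WT (1.496), and lower on B12 than untreated in nhr-10 mutants (-1.32). These comparisons called 1.39% and 0.783% of all genes, and 1 of the 11 each. mpst-4 was lower in untreated nhr-68 mutants than in WT (-0.77), the 1 called gene of the 11, among 6.02% of all genes. Of 7 genes of cysteine use and glutathione synthesis, ctns-1, for the lysosomal cystine transporter, was called, in untreated nhr-68 mutants (0.62 higher than WT), again among 6.02% of all genes. No gene of that list was called in the other comparisons by limma, with unadjusted p under 0.05 for 0 to 3 of the 7.

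rhy-1 (chromosome II, 9161379 to 9163448, plus strand) encodes a membrane protein that resembles acyltransferases, keeps HIF-1 activity low and is itself a target of HIF-1. nhr-10 libraries held 14.03 and 20.73 FPKM on B12 with propionate, 3.63 and 4.74 FPKM on B12, and 8.42 and 19.39 FPKM untreated. nhr-68 libraries held 5.4 and 7.44 FPKM on B12 with propionate, 1.75 and 2.79 FPKM on B12, and 7.47 and 7.98 FPKM untreated. WT libraries held 5.56 and 4.46 FPKM on B12 with propionate, 6.35 and 9.94 FPKM on B12, and 16.01 and 11.64 FPKM untreated. In both mutants the B12 libraries were the lowest, and propionate libraries lay above them, whereas in WT the propionate libraries were the lowest.

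In nhr-10 mutants rhy-1 rose on B12 with propionate against B12, to 17.4 ± 4.74 against 4.19 ± 0.785 FPKM (SD, n = 2 each; 4.15-fold; log2 1.81 ± 0.342, SE; limma, Benjamini-Hochberg adjusted p = 0.0137). Against untreated nhr-10 mutants the log2 difference was 0.38, not called (limma, Benjamini-Hochberg adjusted p = 0.632), and the libraries overlapped. nhr-68 mutants had 6.42 ± 1.44 FPKM on B12 with propionate, against 2.27 ± 0.735 FPKM on B12 (log2 1.19; limma, Benjamini-Hochberg adjusted p = 0.255), and WT had a log2 difference of -0.58 (adjusted p = 0.378). On B12 with propionate rhy-1 was higher in nhr-10 mutants than in WT by 1.59 ± 0.342 (limma, Benjamini-Hochberg adjusted p = 0.0149), which was not called without nhr-10 replicate 2 (adjusted p = 0.195) or WT replicate 2 (adjusted p = 0.113). On B12 rhy-1 was lower in nhr-68 mutants than in WT, at 2.27 ± 0.735 against 8.15 ± 2.54 FPKM (log2 -1.47 ± 0.342; limma, Benjamini-Hochberg adjusted p = 0.0193). This was the single fall called among the members, and it was lost without nhr-68 replicate 1 or WT replicate 2 (adjusted p up to 0.179). B12 against untreated gave log2 differences of -1.43 in nhr-10 mutants, -1.43 in nhr-68 mutants and -0.71 in WT, none called (limma, Benjamini-Hochberg adjusted p = 0.107, 0.102 and 0.584). Without untreated replicate 1 the difference in nhr-10 mutants was -1.98 and was called (adjusted p = 0.0213).

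Beside the members, 9 genes of the hypoxia and sulphide response were tested. gst-19, for a glutathione S-transferase, was listed at 3.30 and 5.28 FPKM in nhr-10 mutants on B12 with propionate, against 0 and 0.23 FPKM on B12, and at 0.48 and 0 FPKM in WT on B12 with propionate. It reached 1 FPKM in 3 libraries, all of nhr-10 mutants, and so entered the tests through libraries in which it was high; its values are given without a test. Of the other 8 genes, limma called 0 for propionate against B12 in nhr-10 mutants (2 at an unadjusted p under 0.05), where 4.55% of all genes were called higher. 1 of the 8, nhr-57, was called for nhr-10 mutants against WT on B12 with propionate (5.6% of all genes higher) and for the difference of the propionate response (3.53%). nhr-57, a nuclear receptor gene used as a reporter of HIF-1 activity, stood at 7.01 and 7.72 FPKM in nhr-10 mutants, against 2.92 and 1.23 FPKM in WT, on B12 with propionate (log2 1.499 ± 0.360; limma, Benjamini-Hochberg adjusted p = 0.0258). Its propionate response was larger in nhr-10 mutants than in WT by 1.97 (limma, Benjamini-Hochberg adjusted p = 0.0394). hif-1, egl-9, vhl-1, phy-2, F22B5.4, ethe-1 and skn-1 were not called in any comparison.

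**Figure D3:**
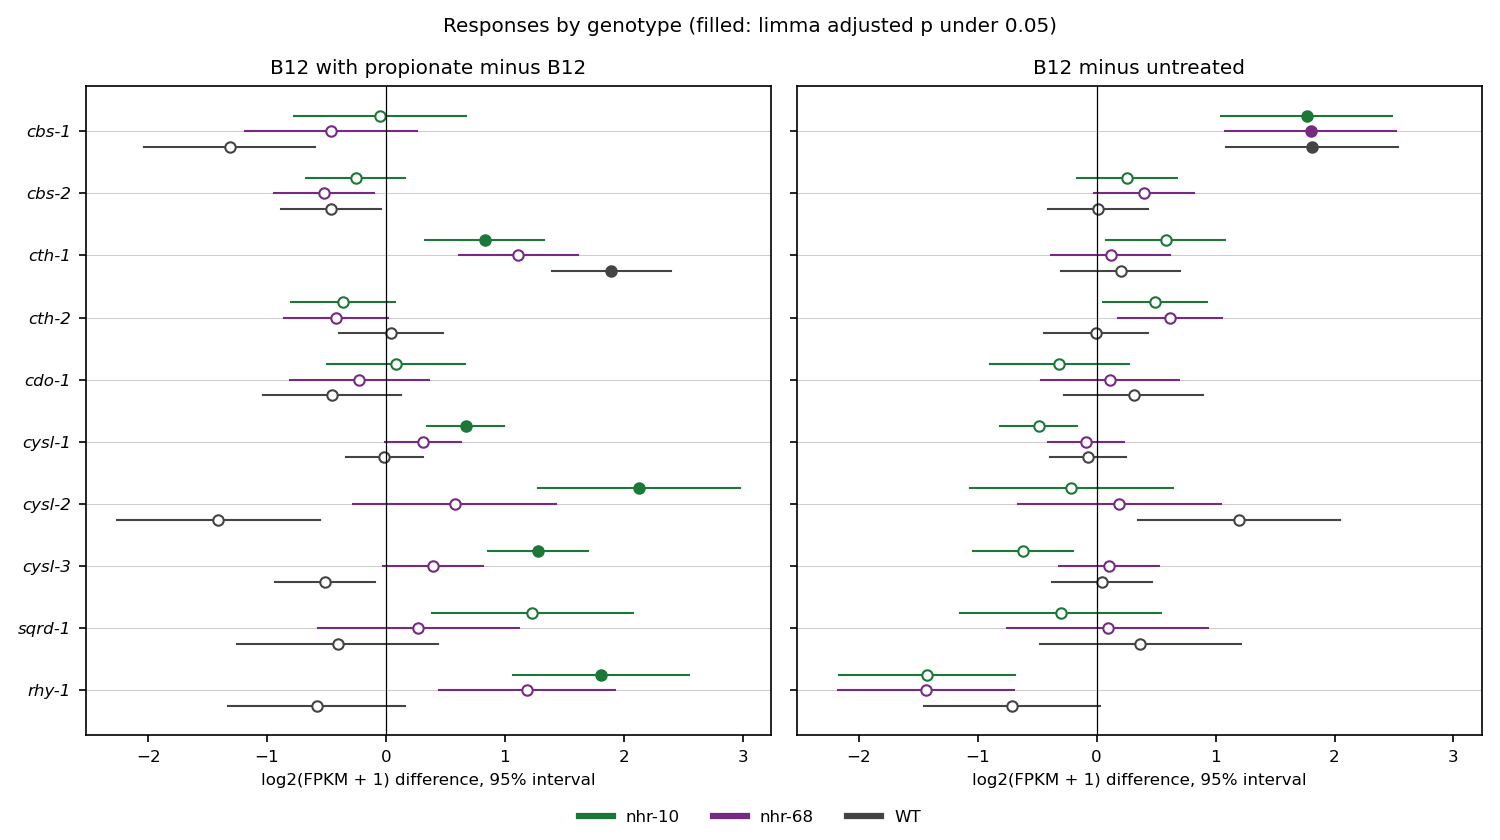
Differences of the 10 genes on the log2(FPKM + 1) scale with 95% intervals, for B12 with propionate minus B12 (left) and B12 minus untreated (right), with nhr-10, nhr-68 and WT by colour, n = 2 libraries a group; filled points passed the limma test. On the left, 5 points of nhr-10 mutants, 0 of nhr-68 mutants and 1 of WT are filled, and on the right cbs-1 is filled in each genotype.

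Counted over the 10 genes, 5 rose on propionate against B12 in nhr-10 mutants (cth-1, cysl-1, cysl-2, cysl-3 and rhy-1), in a comparison that called 7.24% of all genes (4.55% higher). There 6 members had an unadjusted limma p under 0.05, and the median log2 difference of the 10 was 0.75, against 0.04 for all genes. In nhr-68 mutants limma called 0 of 10, among 0.417% of all genes, with 3 members at an unadjusted p under 0.05 and a median of 0.29, against 0.05 for all genes. In WT 1 of 10 was called (cth-1), among 0.411% of all genes, with 5 members at an unadjusted p under 0.05, 2 of 10 above zero and a median of -0.46, against 0.08 for all genes. Since the unadjusted p that an adjusted threshold admits differs between comparisons, the numbers of calls do not rank the genotypes by the size of their response. The calls in nhr-10 mutants were lost without nhr-10 B12 with propionate replicate 2, and all but that of cysl-3 without B12 replicate 1. Calls among all genes also became far fewer in both of these fits. They did not in the fits without the other library of either group, so the calls depended on these particular libraries. Without nhr-10 B12 with propionate replicate 2 the log2 differences were 0.84 for cth-1, 0.58 for cysl-1, 2.11 for cysl-2, 1.11 for cysl-3 and 1.54 for rhy-1. Against untreated nhr-10 mutants 3 of 10 rose (cbs-1, cth-1 and cysl-2), among 1.43% of all genes (0.674% higher), with 0 or 1 left without a library.

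The mutants were also compared with WT under each treatment. Untreated, 0 of 10 members were called in nhr-10 mutants, among 1.39% of all genes, and 0 of 10 in nhr-68 mutants, among 6.02%, with 3 and 2 members at an unadjusted limma p under 0.05. On B12, 0 of 10 were called in nhr-10 mutants, among 9.68% of all genes and with 2 members at an unadjusted p under 0.05, and 1 of 10, rhy-1, in nhr-68 mutants, among 9.84%. On B12 with propionate, 6 of 10 were higher in nhr-10 mutants than in WT (cbs-1, cysl-1, cysl-2, cysl-3, sqrd-1 and rhy-1), among 7.19% of all genes (5.6% higher), and 1 of 10, cysl-3, in nhr-68 mutants, among 3.13%. The median log2 difference of the 10 genes there was 1.08 in nhr-10 mutants and 0.17 in nhr-68 mutants, against 0.02 and -0.05 for all genes. The 6 calls became 3 without nhr-10 replicate 2 (cbs-1, cysl-2 and cysl-3) and 2 without WT replicate 2 (cysl-2 and cysl-3). The lowest of the 10 log2 differences in nhr-10 mutants on B12 with propionate was that of cth-1, -0.71 ± 0.231, not called (limma, Benjamini-Hochberg adjusted p = 0.0835); without WT replicate 1 it was -1.06 and was called (adjusted p = 0.0227).

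**Figure D4:**
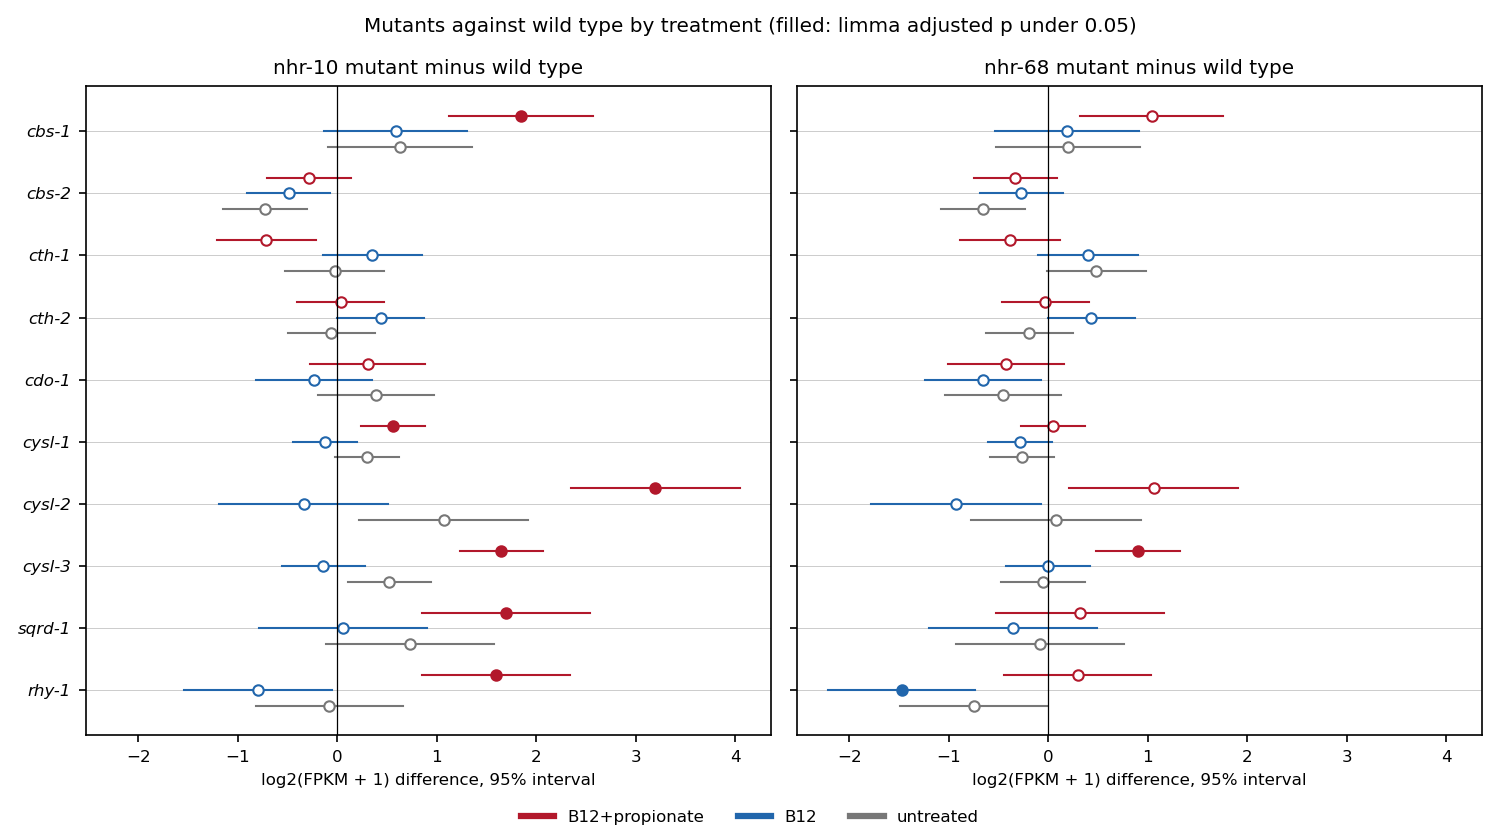
Differences of the 10 genes between nhr-10 mutants and WT (left) and between nhr-68 mutants and WT (right) on the log2(FPKM + 1) scale with 95% intervals, by treatment, n = 2 libraries a group; filled points passed the limma test. In nhr-10 mutants on B12 with propionate 6 genes are filled, from cysl-1 at 0.56 to cysl-2 at 3.20, and in nhr-68 mutants cysl-3 is filled on B12 with propionate and rhy-1 on B12.

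Whether the response itself differed from WT was tested as an interaction. The propionate response was larger in nhr-10 mutants for 3 of 10 members, among 8.49% of all genes (3.53% larger). It differed by 3.54 ± 0.556 for cysl-2 (limma, Benjamini-Hochberg adjusted p = 0.0109), by 1.79 ± 0.274 for cysl-3 (adjusted p = 0.00964) and by 2.39 ± 0.484 for rhy-1 (adjusted p = 0.0227). In each of the 3 the response in nhr-10 mutants was above zero and that in WT below it. sqrd-1 (1.63; adjusted p = 0.0778), cysl-1 (0.68; adjusted p = 0.0607) and cbs-1 missed the threshold. sqrd-1 was called without B12 with propionate replicate 1 of nhr-10 mutants (2.07, adjusted p = 0.0458) or of WT (2.08, adjusted p = 0.0325), and cysl-1 with median-ratio scaling (0.73, adjusted p = 0.0351). For the response of nhr-68 mutants against WT limma called 0 of 10 members and 0% of all genes, 4 members having an unadjusted p under 0.05. The estimates there were 1.99 for cysl-2, 0.90 for cysl-3 and 1.77 for rhy-1 (adjusted p = 0.330, 0.333 and 0.325). Without WT B12 with propionate replicate 1 cysl-2 passed in nhr-68 mutants too (2.75, adjusted p = 0.0285), and the members called for nhr-10 numbered 5 (4 above and 1 below WT). They numbered 1 without nhr-10 B12 replicate 1 (cysl-3) and 1 without WT B12 with propionate replicate 2 (cysl-2). The call for rhy-1 was also lost without nhr-10 B12 with propionate replicate 2 (adjusted p = 0.104) or WT B12 replicate 2 (adjusted p = 0.0946).

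Other features of the animals moved with these contrasts. The summed level of 8 moulting genes was 525.6 and 832.6 FPKM in nhr-10 mutants on B12 with propionate, against 147.9 and 234.4 FPKM on B12. Of the 8, 4 were called higher, in a comparison that called 7.24% of all genes (4.55% higher). In WT the moulting sum was 316.8 and 113.2 FPKM on B12 with propionate, against 292.4 and 224.3 FPKM on B12. Against WT on B12 with propionate, 6 of the 8 moulting genes were called higher in nhr-10 mutants and 4 in nhr-68 mutants. These comparisons called 7.19% (5.6% higher) and 3.13% of all genes. Against WT on B12 alone, 3 and 4 of the 8 were called higher, among 9.68% and 9.84% of all genes. No moulting gene was called lower in these 4 comparisons. The summed level of 6 vitellogenin genes, which encode yolk proteins of the adult intestine, was 1213 and 103.8 FPKM in nhr-10 mutants on B12 with propionate, against 8130 and 3305 FPKM on B12, and all 6 were called lower. In WT it was 904.7 and 3519 FPKM on B12 with propionate, against 819.4 and 628.6 FPKM on B12. Of 6 hypodermal genes 3 were called higher (dpy-7, bli-1 and sqt-3) and 1 lower (col-19, a collagen gene of the adult cuticle) on propionate against B12 in nhr-10 mutants, their summed level being 2188 and 2321 against 3674 and 2821 FPKM. In WT the hypodermal sum was 1731.0 and 2095 FPKM on B12 with propionate, against 2045 and 1566 FPKM on B12. Of 9 sperm genes 2 were called lower in the same comparison of nhr-10 mutants, with sums of 1349 and 1053 FPKM on B12 with propionate, against 1772 and 1676 FPKM on B12. The sperm sum in WT was 1652 and 1626 FPKM on B12 with propionate, against 1399 and 894.4 FPKM on B12. For the propionate response of nhr-10 mutants minus that of WT, limma called 6 of 6 vitellogenin genes and 6 of 9 sperm genes lower, 2 hypodermal genes higher and 2 lower, and 0 of 8 moulting genes, 7 of which had an unadjusted p under 0.05. That test called 8.49% of all genes (3.53% higher). No gene of the moulting, vitellogenin, hypodermal or sperm list was at 0 in any library. Summed heat shock genes were above 100 FPKM in 5 libraries. In nhr-10 mutants these were the second libraries on B12 with propionate (112.6 FPKM) and untreated (244.7 FPKM). In nhr-68 mutants they were likewise the second libraries on B12 with propionate (118.9 FPKM) and untreated (177.4 FPKM). In WT it was the first library on B12 (286.1 FPKM). rhy-1 and sqrd-1 were also higher in the second library than in the first in every mutant group, but not in every WT group. Over all 18 libraries the summed levels ran from 113.2 to 832.6 FPKM for moulting, 103.8 to 9653 FPKM for vitellogenin, 894.4 to 1772 FPKM for sperm and 2.34 to 286.1 FPKM for heat shock genes. The part of these features in the differences of the 10 genes was not tested.

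**Figure D5:**
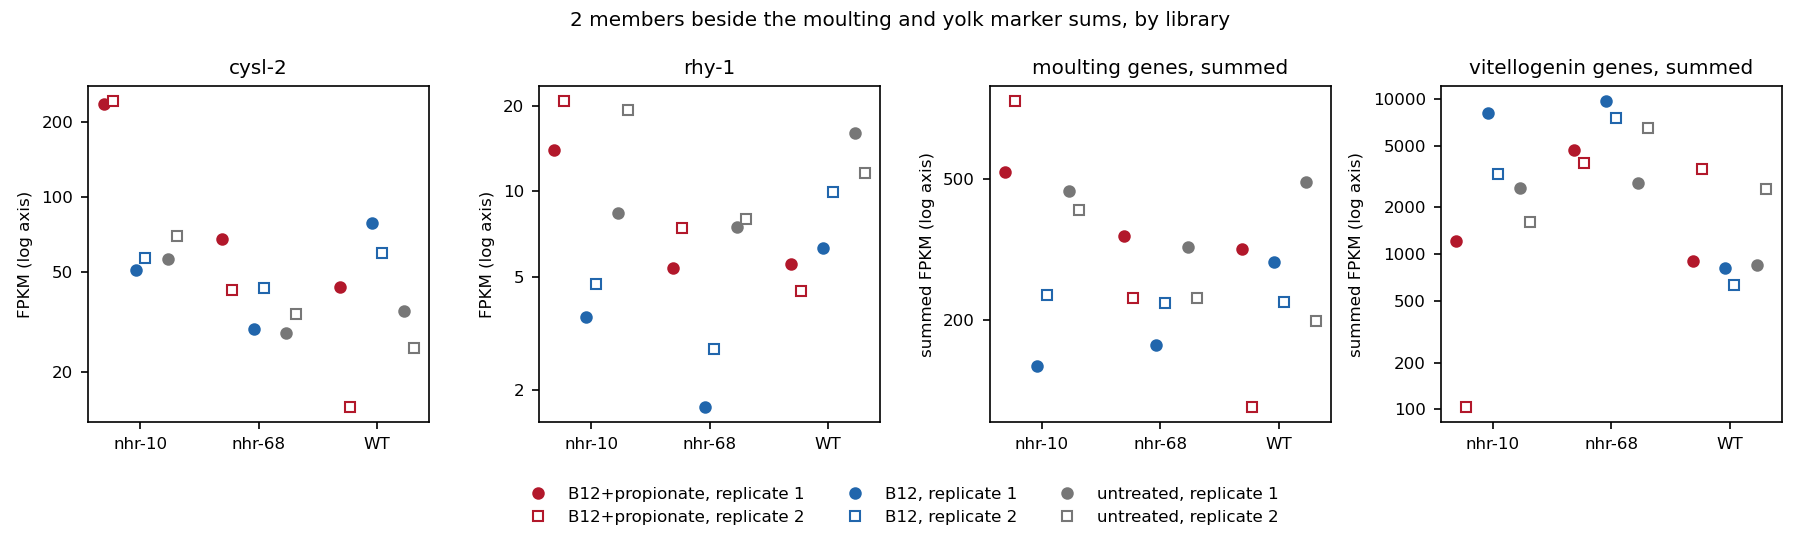
FPKM of cysl-2 and rhy-1 and summed FPKM of the 8 moulting and 6 vitellogenin genes in each library, on log axes, with genotype along the horizontal axis, treatment by colour and replicates by symbol. In nhr-10 mutants on B12 with propionate cysl-2 was at 236.5 and 242.6 FPKM while moulting genes summed to 525.6 and 832.6 FPKM and vitellogenin genes to 1213 and 103.8 FPKM.

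Exons of 5 members overlap, on the opposite strand, exons of another gene in the table; these neighbours were singled out after the annotation had been read. The overlap covers 16.0% of the exons of cdo-1 (with F56F10.2), 6.86% of cysl-3 (rips-1), 4.92% of rhy-1 (W07A12.8), 3.21% of cysl-2 (vnut-1) and 0.602% of cth-2 (ZK1127.3). Whether the authors' counting used strand is not given in the sources used here, so reads in the overlaps cannot be assigned. vnut-1 stayed between 12.67 and 21.40 FPKM, and W07A12.8 between 0.36 and 2.69 FPKM, in the 18 libraries. rips-1 moved with cysl-3 in nhr-10 mutants: it stood at 48.51 and 50.92 FPKM on B12 with propionate, against 9.15 and 11.90 FPKM on B12 (log2 2.15 ± 0.226; limma, Benjamini-Hochberg adjusted p = 4.98e-04). Unlike cysl-3, whose untreated nhr-10 libraries lay below its propionate libraries, rips-1 stood at 49.20 and 61.23 FPKM in untreated nhr-10 mutants. For both genes the untreated nhr-10 libraries lay above those on B12.

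Likeness of pattern was measured as Pearson r over the 9 group means, as a description, among 4541 genes whose group means spanned at least 1 on the log2 scale. Within the 10 genes the most alike pairs were cysl-2 with sqrd-1 (r = 0.969), cysl-2 with cysl-3 (0.889), cysl-3 with sqrd-1 (0.888) and cysl-1 with sqrd-1 (0.856). These group means share libraries and the same group high in all 4 genes. Outside the 10, cysl-2 was most like acs-19 (0.958), gpx-6 (0.956) and K10C9.4 (0.949), and sqrd-1 most like nit-1 (0.969), col-90 (0.960) and F58E2.4 (0.959). cysl-3 was most like B0284.3 (0.965), R03H10.2 (0.962) and T19B10.5 (0.961), and cysl-1 most like F20G2.3 (0.973), C32D5.12 (0.972) and mboa-1 (0.970). The genes nearest to cth-1 were str-7 (0.923), the arginine kinase gene argk-1 (0.920) and K01A6.7 (0.884). For cbs-1 they were C14C6.5 (0.946), irg-3 (0.940) and sysm-1 (0.940). rhy-1 was nearest to 3 table entries with identical values, all carrying the symbol his-51 (0.956). cbs-2 was nearest to WBGene00022079 (0.968), Y53F4B.11 (0.953) and F27E5.3 (0.952), cth-2 to F11C7.6 (0.928), C39B5.14 (0.908) and K12B6.11 (0.907), and cdo-1 to C01C10.2 (0.986), F54D10.8 (0.957) and ger-1 (0.954). cbs-2, cth-2, cysl-1 and cdo-1 spanned less than 1 themselves (0.79, 0.62, 0.83 and 0.96).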

How the data were processed

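Expression was measured by RNA sequencing in 18 pools of whole L4 animals, grouped by GEO's labels into 9 groups. The deposited table gives FPKM per gene and library, made by the authors. Per the submitters' processing notes, Bowtie2, HISAT and RSEM were used with the build WBcel235; tool versions, settings, filters and use of strand were not given in the sources used here. Where a read maps to more than 1 gene, RSEM divides it by an estimate, so levels of close copies within the cbs, cth, cysl and sams genes are uncertain. FPKM are relative to each library's total.

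Genes reaching 1 FPKM in 2 or more libraries (15575) were analysed as log2(FPKM + 1), a scale that compresses changes of genes near 1 FPKM. limma 3.58.1 (R 4.3.3) estimated a mean for each of the 9 groups with an intensity trend. Since the spread is estimated over all groups (9 residual degrees of freedom, prior 3.60), a pair of libraries is assumed to vary like the other groups. Benjamini-Hochberg adjustment ran over all genes within each of 19 comparisons, with a threshold of 0.05. SD is over 2 libraries. The fit was tested on simulated data in which a gene varied equally in all groups. That simulation could not show how unequal spread between groups affects the calls. Depth was estimated from FPKM steps of genes with 1 transcript.

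Symbols and coordinates came from the Ensembl 115 annotation of WBcel235; 208 identifiers of the table had no entry there and 19090 had a symbol. Of the pathway and marker genes, sqrd-2, mpst-5, moc-4, msd-3, opt-2 and hsp-16.11 found no match, and mpst-6, msd-1, hsp-16.1 and hsp-16.48, matching more than 1 entry, were left out. The members, pathway lists and marker lists were chosen with earlier results of these data known. Named are the 10 members and both receptor genes, up to 4 called genes of each pathway list, and the 3 genes most alike in pattern to each member. Neighbours with overlapping exons, and pathway genes beyond 4, were named after their values were seen. gst-19 was left out of the counts of its list after its values were seen. Sequences were not used here, so promoters were not searched for hypoxia response elements. Alternatives replaced the pseudocount by 0.1, dropped the low-value filter, scaled libraries by median ratios, fitted the compared groups alone, added the replicate number as a block, or left out each library in turn.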

Additional observations from a re-analysis of the deposited data

Results flagged for a closer look

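The propionate response (B12 with propionate minus B12) differed between nhr-10 mutants and WT in 3 of the 10 genes by a test of the difference itself. For cysl-2 the difference between the responses was 3.54 on the log2 scale (response 2.13 in nhr-10 mutants and -1.41 in WT; limma, Benjamini-Hochberg adjusted p = 0.0109). It was 1.79 for cysl-3 (1.28 in nhr-10 mutants and -0.51 in WT; adjusted p = 0.00964) and 2.39 for rhy-1 (1.81 in nhr-10 mutants and -0.58 in WT; adjusted p = 0.0227). None of the 3 responses in WT was called with all libraries kept. In all 3 genes both nhr-10 libraries on B12 with propionate lay above both on B12, and both WT libraries on B12 with propionate lay below both on B12. The test that picked the 3 genes used these same libraries, so their order adds no support to it. Of the 13 alternatives, 11 kept the call for cysl-2, 11 for cysl-3 and 8 for rhy-1. Moulting, vitellogenin, hypodermal and sperm genes also moved in the same nhr-10 libraries, and their part in these differences was not tested. No group has more than 2 libraries, so single libraries were not examined for lying far from the rest of their group.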

How the results depend on the processing

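Of 1870 values of single members under an alternative, 1773 kept their side of the threshold, 83 lost a call, 14 gained one and 0 reversed a call, while 88 values called in neither fit changed sign. With only the compared groups in the fit, which leaves fewer libraries to estimate the spread, 0 members were called for B12 against untreated, propionate against B12 and B12 with propionate against untreated in nhr-10 mutants (1, 5 and 3 with all groups) and in WT (1 each). Almost no gene was called there at all. Of all genes, this fit called 1, 0 and 12 in nhr-10 mutants and 1, 0 and 0 in WT, in the same order. The same fit called 0 members in nhr-10 and nhr-68 mutants against WT on B12 with propionate (6 and 1) and in the propionate response of nhr-10 mutants against WT (3). Of all genes it called 13, 17 and 2 in these comparisons. Other comparisons kept their 1 called member in this fit. They were B12 against untreated in nhr-68 mutants (cbs-1, with 93 of all genes called) and B12 with propionate against untreated there (cth-1, 34). The third was nhr-68 mutants against WT on B12 (rhy-1, 1826 of all genes, against 1532 with all groups). Why the comparisons differed in this was not tested. Without the low-value filter 0 were called for B12 with propionate against untreated in nhr-68 mutants and for B12 against untreated in WT (1 each), and the cause was not tested. Median-ratio scaling put the median of all genes at 0.01 in place of -0.12 for B12 against untreated in nhr-10 mutants, and at -0.0032 in place of 0.11 for untreated nhr-10 mutants against WT.

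Leaving out each library in turn leaves a group with 1 library, assumed to vary like the others. Calls among all genes mostly became fewer in these fits too. The lowest and highest numbers of called members were as follows. For B12 against untreated they were 0 and 1 in nhr-10 mutants (1 being cbs-1 without B12 replicate 2, or rhy-1, lower, without untreated replicate 1), 0 and 0 in nhr-68 mutants and 0 and 0 in WT. For propionate against B12 they were 0 and 5, 0 and 0, and 1 and 2 in the same order, and for B12 with propionate against untreated 0 and 1, 0 and 0, and 1 and 1. Against WT, nhr-10 mutants had 0 and 0 untreated, 0 and 2 on B12 (cbs-1 and cth-2, without nhr-10 B12 replicate 2) and 2 and 6 on B12 with propionate, and nhr-68 mutants had 0 and 0, 0 and 1, and 0 and 1. Differences of the propionate response from WT gave 1 and 5 in nhr-10 mutants and 0 and 1 in nhr-68 mutants, and those of the B12 response 0 and 0 in both.

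Replicate numbers were not treated as pairing the libraries. Over 36 pairs of groups the correlation of the differences between replicates 1 and 2 ran from -0.379 to 0.563, with a median of 0.08 and 15 pairs above 0.1. With the replicate number as a block, 1 member in place of 0 was called for propionate against B12 in nhr-68 mutants (cth-1, limma, Benjamini-Hochberg adjusted p = 0.0354), and the propionate response of cth-1 was called lower in nhr-10 mutants than in WT (-1.06, adjusted p = 0.0437), which put the members called there at 4 in place of 3. The block changed no other call of a member. Depth limits rhy-1, sqrd-1 and cbs-2 most, which in their lowest libraries rested on an estimated 39, 54 and 101 fragments.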
